A study of Mus musculus with 5480 samples.

Results

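The 9 Kruppel-like factor genes Klf2, Klf3, Klf4, Klf5, Klf6, Klf7, Klf9, Klf10 and Klf13 were followed in the mesenchyme of the newborn mouse lung, meaning its fibroblasts, smooth muscle cells and pericytes. They were chosen by name, and each was found as 1 of the 18072 gene rows of the count table. The cells had been sorted by flow cytometry from distal lung and sequenced 1 cell per well with a Tn5 transposase method, in which an enzyme cuts cDNA and attaches sequencing adapters in the same step. The table held 5480 cells from 10 mice, with 1 female and 1 male per group. Groups were sampled at embryonic day 18.5 (E18.5, 1206 cells), postnatal day 1 (P1, 1203 cells), day 7 (P7, 1176 cells) and day 21 (P21, 835 cells), all labelled normal, and P7 labelled hyperoxia (1060 cells), the breathing of oxygen-enriched air. The labels used here name no strain, no genetic change and no oxygen level.

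Kruppel-like factors are transcription factors with zinc fingers at the end of the protein that bind GC-rich and CACCC sequences in promoters and enhancers. Members differ in the rest of the protein, through which some recruit activators and others recruit repressors. Klf2, Klf4 and Klf6 are known as quickly induced genes, Klf2 and Klf4 for their response to blood flow in endothelium, and Klf4 for opposing the contractile programme of smooth muscle. Klf9 is a known target of the glucocorticoid receptor and of thyroid hormone, Klf10 is known for its early induction by TGF-beta, and Klf5 is known from epithelium and from injured vessel walls.

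The cell subtypes are the 16 that the authors gave in the labels, and a library here means the summed reads of 1 mouse's cells of 1 subtype, used where it had at least 10 cells. Levels are given as CPM, the read count of a gene set to a common library size after scaling by the trimmed mean of M-values (TMM). For tests, the early and later subtypes of alveolar fibroblasts, adventitial fibroblasts and airway smooth muscle were joined into 1 class each, and levels of these are class levels unless a subtype is named. The subtype names follow age in part. A step from P7 to P21 in these classes is therefore partly a step from the early to the later subtype. The early alveolar and early adventitial labels occurred in all 10 mice. The later adventitial label occurred in 5 mice, and the later alveolar and airway labels in 2 each. The authors defined the subtypes from expression in the same cells, so differences between subtypes of the same age are described here without a test. The tests from E18.5 precursors to P1 classes cross a subtype as well as an age and carry the same limit. A level summed over cells cannot tell fewer expressing cells from less RNA per cell, so the share of cells with a read is given where it bears on the result.

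A median cell had 774305 reads (range 39358 to 5177020). Both hyperoxia mice stood apart: their cells had a median of 4268 and 5545 detected genes against 2061 to 3848 in the other 8 mice. They were also sequenced almost wholly in runs (DC33 and DC34) that held no other group, so treatment and run cannot be told apart. The females in air were sequenced mainly in DC25 (E18.5 and P1), DC20 (P7) and DC21 (P21), so that the female steps from P1 to P7 and from P7 to P21 cannot be told apart from run, while the 4 males in air were nearly all in DC35 and each step between males lies within that run. Over the 64 summed libraries Col1a1, a collagen gene of mesenchymal cells, was detected in every library, while the epithelial gene Epcam reached at most 4.99 CPM, the endothelial genes Cdh5 and Pecam1 15.2 and 91.3 CPM and the immune gene Ptprc 1.53 CPM. The surfactant gene Sftpc had a median of 17.1 CPM and reached 846 CPM, and it was at 0 in 5 libraries. The E18.5 alveolar libraries were small, with 14 cells in the female and 24 in the male, and pericytes of the hyperoxia mice (5 and 3 cells) were too few for a level.

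Compared per length of transcript, Klf6 was the most abundant member, with a median of 78.7 CPM per kb of exon over the 64 libraries. Klf2 (30.5 CPM per kb), Klf4 (24.8 CPM per kb) and Klf13 (23.9 CPM per kb) came next. Klf7, Klf9, Klf3 and Klf10 had medians of 10.6, 9.5, 8.1 and 5.2 CPM per kb, and Klf5 one of 0.2 CPM per kb. The level per cell was uneven in a gene-specific way. With every cell cut down at random to 100000 reads, called thinning, Klf13 was detected in 72.9% of 5312 cells, Klf6 in 60.6%, Klf2 in 31.7%, Klf10 in 15.7% and Klf5 in 4.6%. Without thinning the shares were 77.5%, 63.6%, 36.2%, 19.6% and 6.8%. In the median library the top 10% of cells held 43.7% of the Klf13 reads, 54.3% of the Klf6 reads and 77.5% of the Klf2 reads, so that Klf13 was the most evenly spread of the 9. Klf10 reads lay almost entirely (96.9%) in those cells. The values are reads without molecular identifiers, and copies made during amplification count separately.

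**Figure D1:**
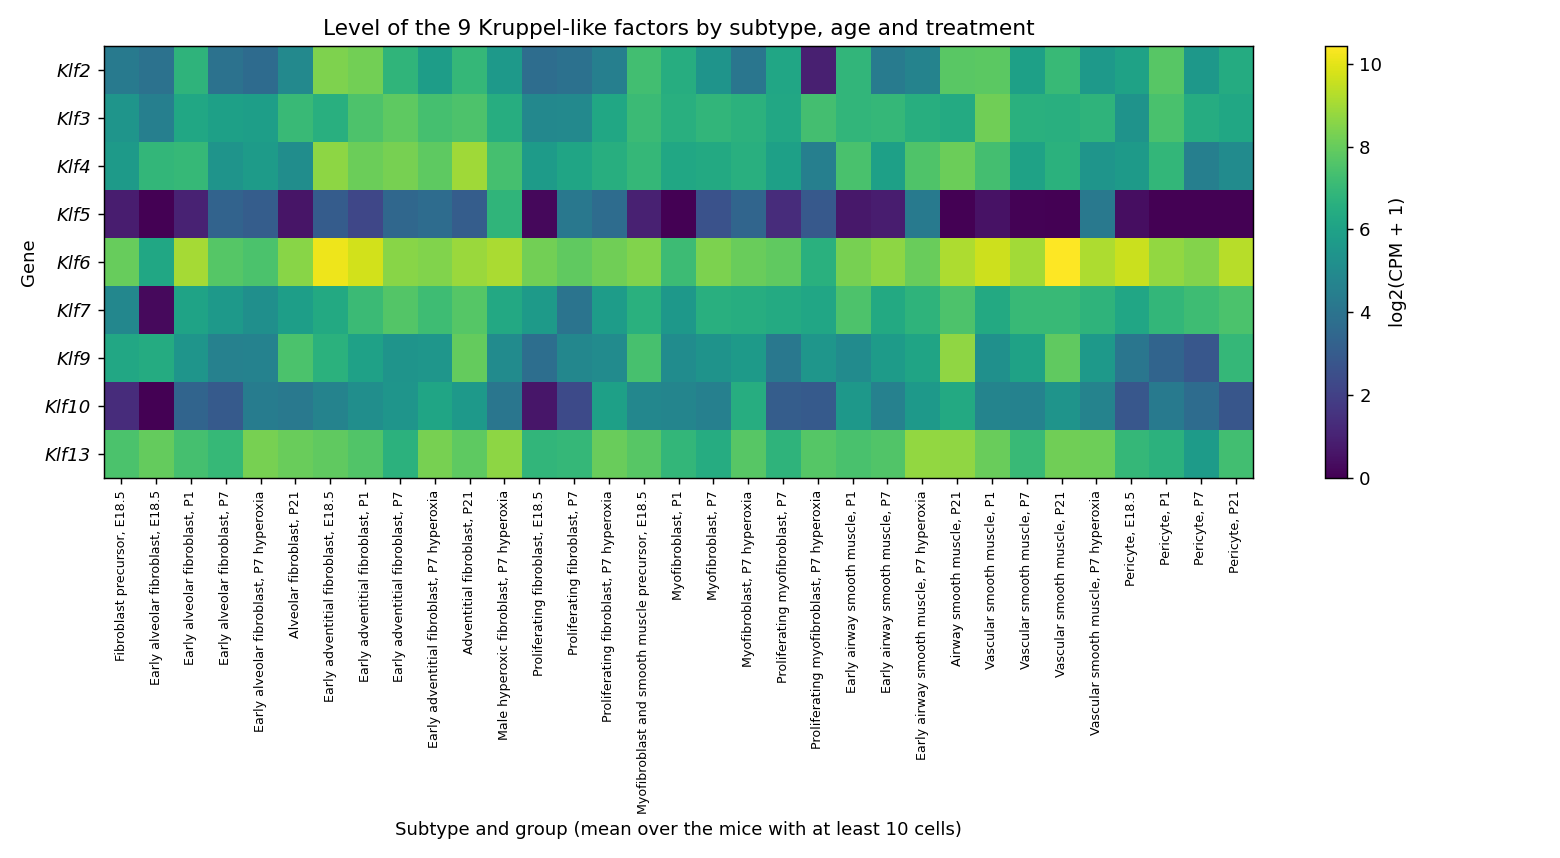
Colour gives log2(CPM + 1) of the mean over mice for the 9 genes (rows) in each subtype and group with at least 10 cells in a mouse (columns). Klf6 and Klf13 are high in nearly every column, Klf5 is near 0 outside a few fibroblast and hyperoxia columns, and Klf9 is brightest in the P21 columns and in the contractile precursors of E18.5.

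Adventitial fibroblasts, the fibroblasts of the connective tissue around airways and large vessels, carried more of most members than alveolar fibroblasts of the same mouse. Klf2, Klf3, Klf4, Klf7, Klf9 and Klf10 were higher in adventitial than in alveolar fibroblasts in 10 of 10 mice, and Klf5 and Klf6 in 9 of 10. The median log2 difference, alveolar over adventitial on the log2(CPM + 1) scale, was -2.28 for Klf4, -2.14 for Klf2 and -0.74 for Klf9. Klf13 went the other way, with the alveolar level above the adventitial one in 7 of 10 mice. How many of all genes lay higher in adventitial fibroblasts in 10 of 10 mice was not counted, so the order cannot be called particular to the members. Median detected genes per cell were 4240.5 and 3564 in the early and later adventitial subtypes against 3486.5 and 2789 in the alveolar ones. The alveolar libraries of the E18.5 mice held only 14 and 24 cells.

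Klf4 showed this difference most plainly. It stood at 363 and 440.3 CPM in the adventitial fibroblasts of the female and male E18.5 mice, at 256 and 291 CPM at P1, 239.6 and 386 CPM at P7 and 500.3 and 499.6 CPM at P21. In alveolar fibroblasts it stood at 70.6 and 169, 93.8 and 158, 51.2 and 32.4 and 50.0 and 17.4 CPM at the same ages. The lowest adventitial level in normal air lay above the highest alveolar one, and the gap was widest at P21. Pericytes, the cells that wrap capillaries, had less Klf4 than adventitial fibroblasts in 8 of 8 mice (median log2 difference 3.35).

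In other classes the order of the members changed. Klf6 had its highest class median in vascular smooth muscle (650.4 CPM over 8 libraries), next to 527 CPM in pericytes. Klf9 and Klf13 were lower in pericytes than in alveolar fibroblasts in 8 of 8 mice. Klf9 had its highest class median in the E18.5 precursors of myofibroblasts and smooth muscle (169.9 CPM, 2 libraries), and Klf10 in airway smooth muscle (46.2 CPM, 8 libraries). Class medians pool all ages and treatments of a class, and these precursor libraries are of E18.5 alone. At P21 the mean Klf9 level was higher in airway smooth muscle (388 CPM), adventitial fibroblasts (248 CPM), vascular smooth muscle (238 CPM) and alveolar fibroblasts (175 CPM), and lower in pericytes (122 CPM).

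Across the steps in age and the hyperoxia comparison, few single tests of a member passed the threshold, which was an adjusted p of 0.05 in edgeR's quasi-likelihood test with Benjamini-Hochberg adjustment over all genes of a class. From E18.5 to P1, 3 of 44 member tests passed, with 2 higher and 1 lower at P1. From P7 to P21, 1 of 44 passed, which was higher at P21, and a joint test over all ages passed in 2 of 44. From P1 to P7 0 of 53 tests passed (9 at an unadjusted p under 0.05, 2 with DESeq2), and under hyperoxia 0 of 45 (6 at an unadjusted p under 0.05, 3 with DESeq2). DESeq2 called 10, 8 and 13 members' tests in the E18.5 to P1, P7 to P21 and joint comparisons, beside 435 to 3811, 462 to 1172 and 404 to 3916 genes per class. With 1 female and 1 male per group the fits had 2 to 4 residual degrees of freedom.

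Those counts stand beside the following shares of all tested genes past the same threshold. From P7 to P21 they were 1.07% in airway smooth muscle, 0.131% in adventitial fibroblasts, 0.0886% in vascular smooth muscle, 0.0702% in alveolar fibroblasts and 0.0504% in pericytes. For any difference between ages they were 1.32%, 1.14%, 0.0644%, 0.408% and 0.118% in the same order. From E18.5 to P1 they were 6.38% in alveolar fibroblasts, 0.17% in adventitial fibroblasts and 0.042% in pericytes. They were 0.181% from fibroblast precursors to P1 alveolar fibroblasts and 1.27% from contractile precursors to P1 myofibroblasts. In each of the 6 classes tested from P1 to P7 and each of the 5 tested under hyperoxia the share was 0%, with 368 to 1091 and 317 to 1222 genes per class at an unadjusted p under 0.05, and 212 to 736 and 139 to 394 genes called by DESeq2.

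Klf9 was the member with the clearest course in age. It rose 7.29-fold from P7 to P21 in airway smooth muscle, the muscle around the conducting airways, and it dropped from the contractile precursors of E18.5 to the P1 myofibroblasts. In every class with cells at both ages, both P21 mice lay above both P7 mice. Klf9 encodes a small repressor-type Kruppel-like factor on chromosome 19. The stretch before its start is shown because Klf9 is the member whose age difference was called in the most tests, and because glucocorticoid-responsive genes are compared with it. The sequence is from RefSeq (GRCm38.p6, chr19:23140976-23141225, plus strand, 250 bases, 5′ to 3′), and capitals mark its single CACCC.
Klf9: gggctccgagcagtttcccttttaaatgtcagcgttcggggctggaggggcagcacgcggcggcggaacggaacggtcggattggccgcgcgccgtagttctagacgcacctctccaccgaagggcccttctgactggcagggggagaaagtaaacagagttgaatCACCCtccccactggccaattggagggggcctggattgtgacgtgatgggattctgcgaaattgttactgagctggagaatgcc

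Among 32851 RefSeq promoter windows of 250 bases upstream of a start, searched on both strands, CACCC occurred in 52.0% and the GC box GGGCGG in 32.7%. Of the 7 members with a promoter in that table (all but Klf5 and Klf10), 5 held CACCC (Klf2, Klf3, Klf7, Klf9 and Klf13) and 6 held GGGCGG, Klf9 being the one without. The consensus of the glucocorticoid response element occurred in 0.00913% of all windows and in none of the 7. These matches are letters in a window and were not tied to binding.

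In airway smooth muscle, Klf9 stood at 38.3 and 25.0 CPM in the female and male P1 mice, 47.7 and 56.2 CPM at P7 and 288 and 487 CPM at P21. The P21 pair lay several-fold above both earlier pairs, and the P7 pair lay just above the P1 pair. The step from P7 to P21 was 2.87 on the log2 scale (SE 0.52, edgeR adjusted p = 0.0378), and the joint test over ages gave an adjusted p of 0.0162. The call rested on single mice: the adjusted p was 0.224 without the female P7 mouse, 0.316 without the male P7 mouse and 0.162 without the male P21 mouse. The joint call was lost without the female (adjusted p = 0.0509) or the male P21 mouse (0.116).

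In adventitial fibroblasts Klf9 had its low point at P7. It stood there at 86.0 and 116 CPM at E18.5, 51.2 and 73.8 CPM at P1, 50.0 and 30.5 CPM at P7 and 188 and 307 CPM at P21. The P7 pair lay below the other 3 pairs, narrowly so for P1, and the P21 pair was the highest. The joint test over ages passed (edgeR adjusted p = 0.0483), while the step from P7 to P21 alone, 2.56 on the log2 scale (SE 0.45), had an adjusted p of 0.0697. The joint call held in 8 of 20 alternatives: it was lost without any single mouse other than the female P7 or the male E18.5 mouse (adjusted p = 0.052 to 0.299), and its adjusted p was 0.0503 with TMM within each class and 0.0825 without scaling factors.

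The other 3 classes with P21 cells had the same direction without passing the test. Klf9 was 30.2 and 16.3 CPM at P7 and 170.0 and 180.4 CPM at P21 in alveolar fibroblasts (log2 difference 2.92, edgeR adjusted p = 0.474). In vascular smooth muscle it was 38.1 and 90.1 CPM at P7 and 179 and 297 CPM at P21 (log2 difference 2.02, edgeR adjusted p = 0.682). Pericytes went from 8.31 and 4.04 CPM at P7 to 117 and 127 CPM at P21 (log2 difference 4.28, edgeR adjusted p = 0.947). In each the P21 pair lay above the P7 pair, most widely in pericytes, where Klf9 was close to the lowest of any class before P21.

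Having both P21 mice above both P7 mice in all 5 classes was shared by 1.33% of the 9468 genes with a mean of at least 10 CPM, and among the 8 members that reach that mean by Klf9 and Klf13. The same mice supply every class, so the classes are not independent. Klf9 kept this pattern with total-read scaling and with the mean of per-cell CPM. Single plates did so as well in 4 of the classes: P7 plates spanned 12.6 to 75.7 CPM and P21 plates 278 to 501 CPM in airway smooth muscle, 11.5 to 34.9 against 163 to 192 CPM in alveolar fibroblasts, 21.5 to 75.2 against 181 to 407 CPM in adventitial fibroblasts and 0.08 to 9.54 against 60.2 to 185 CPM in pericytes. In vascular smooth muscle the P7 plates (22.6 to 150.9 CPM) came close to the P21 plates (153 to 189 CPM), which were both of the female.

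More cells carried Klf9 at P21. With cells thinned to equal depth, it was detected in 8.0 and 10.0% of pericytes in the female and male P7 mice and in 58.0 and 36.1% at P21. In alveolar fibroblasts the shares were 24.3 and 13.8% at P7 and 71.6 and 41.4% at P21, and in airway smooth muscle 46.7 and 41.3% and 87.1 and 73.2%. In all 3 classes both P21 shares lay above both P7 shares, although the male P21 mouse had the fewest genes per cell of all mice.

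Before birth Klf9 was high in the precursors. It stood at 182 and 158 CPM in the E18.5 precursors of myofibroblasts and smooth muscle and at 31.6 and 34.4 CPM in the P1 myofibroblasts, 2 pairs far apart. That difference was -2.38 on the log2 scale (SE 0.44, edgeR adjusted p = 0.0412), a 5.21-fold lower level. It compares 2 subtypes as well as 2 ages. The call was lost without the female (adjusted p = 0.36) or the male E18.5 mouse (0.188), with only the groups compared (0.131), and without the male P1 mouse or any 1 P7 mouse in air or hyperoxia (0.0592 to 0.0963). Dividing fibroblasts of E18.5 had 12.4 and 12.6 CPM, well under the 81.7 and 68.9 CPM of the fibroblast precursors of the same mice. In myofibroblasts Klf9 then stayed between 26.5 and 53.2 CPM at P7 and between 42.9 and 59.2 CPM under hyperoxia, and no class had separate Klf9 levels in air and hyperoxia.

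**Figure D2:**
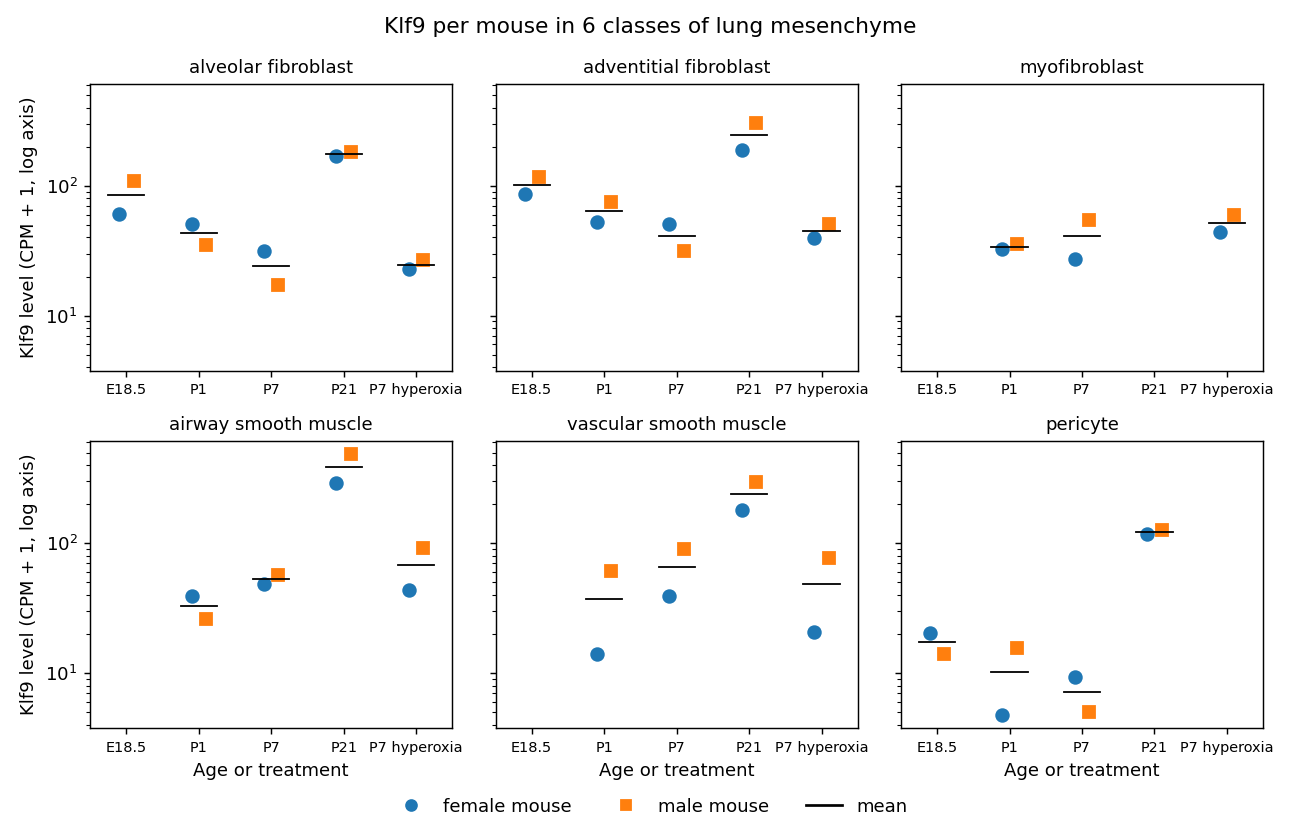
Klf9 level per mouse (CPM + 1, log axis) against age or treatment in 6 classes, with circles for females, squares for males and lines for the mean. In the 5 classes with cells at P21, both P21 mice lie above both P7 mice, and the male P21 mouse has the highest level of all in the airway panel (487 CPM).

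Genes known to respond to glucocorticoids, hormones that surge around birth, were compared as a list of 10 that does not contain Klf9 (Fkbp5, Tsc22d3, Per1, Zbtb16, Sgk1, Pdk4, Cebpd, Mt1, Mt2 and Errfi1). From P7 to P21 in airway smooth muscle 6 of the 10 rose and 0 fell, with a median log2 difference of 3.75 beside -0.12 for all genes. Cebpd, a transcription factor gene, rose from a mean of 127 to 2046 CPM (log2 4.01, edgeR adjusted p = 0.0099), and Tsc22d3, an anti-inflammatory gene also called GILZ, from 123 to 979 CPM (log2 2.97, edgeR adjusted p = 0.0415). In adventitial fibroblasts 1 of the 10 rose (median 3.14), and in alveolar fibroblasts (2.80) and vascular smooth muscle (4.35) 0 passed edgeR's test, with 6 of 10 at an unadjusted p under 0.05 in each. Pericytes, where Klf9 was also higher at P21, had a list median of 0.14 beside 0.34 for all genes, with 5 of 10 positive.

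The list was also lower beyond birth in the same precursors as Klf9. From contractile precursors to P1 myofibroblasts 3 of 10 genes fell and 0 rose (median log2 difference -2.24 beside -0.38 for all genes). From fibroblast precursors to P1 alveolar fibroblasts 0 of 10 passed (4 at an unadjusted p under 0.05) and 0 of 10 were positive (median -1.61), while Klf9 was 81.7 and 68.9 CPM in the precursors and 50.0 and 34.3 CPM in the alveolar fibroblasts (edgeR adjusted p = 0.819). Over the 64 libraries, the log2 level of Klf9 had a Pearson correlation of 0.59 with that of the list's summed level, the highest of the 9 members. The libraries share mice, runs and depth, and the figure is a description.

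Klf2, Klf4 and Klf6, the members known for rapid induction, differed in their course from P1 to P7. Klf2 was lower at P7 than at P1 in both mice of all 6 classes, by 2.21 to 7.86-fold, but no class passed the test. The Klf2 promoter is shown because it was the only one of the 7 with a match to the MEF2 consensus, the site through which the kinase ERK5 is known to induce Klf2. That consensus occurred in 2.92% of all 32851 windows. The sequence is from RefSeq (GRCm38.p6, chr8:72318812-72319032, plus strand, 221 bases, 5′ to 3′, ending just before the annotated gene), and capitals mark the MEF2 match, which starts 118 bases before the RefSeq start.
Klf2: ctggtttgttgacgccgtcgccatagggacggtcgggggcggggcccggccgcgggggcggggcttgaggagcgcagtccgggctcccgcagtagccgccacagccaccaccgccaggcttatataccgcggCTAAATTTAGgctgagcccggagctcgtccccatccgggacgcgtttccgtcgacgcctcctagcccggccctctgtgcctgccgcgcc

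Klf2 stood at 90.5 and 129.6 CPM in alveolar fibroblasts of the female and male P1 mice and at 14.8 and 13.8 CPM at P7. In adventitial fibroblasts it stood at 381 and 292 CPM at E18.5, 283 and 302 CPM at P1 and 158 and 59.6 CPM at P7. Vascular smooth muscle had 266 and 181 CPM at P1 and 9.74 and 112 CPM at P7. In all 3 the P1 pair lay above the P7 pair, and the P7 mice of vascular smooth muscle were far apart.

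The same order held in the remaining classes. Airway smooth muscle had 81.0 and 148 CPM of Klf2 at P1 and 34.9 and 4.14 CPM at P7. Myofibroblasts had 97.5 and 82.3 CPM at P1 and 43.0 and 38.5 CPM at P7. Pericytes had 138 and 280.0 CPM at P1 and 61.7 and 32.2 CPM at P7. The log2 differences ran from -2.97 in alveolar fibroblasts to -1.14 in myofibroblasts, with edgeR adjusted p-values of 0.62 to 1. Both P7 mice below both P1 mice in all 6 classes was found for 0.158% of the 9468 genes (15 genes), and of the members for Klf2 alone. It held with total-read scaling and with mean per-cell CPM, and the classes come from the same 4 mice.

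Klf2 then went separate ways. In airway smooth muscle it stood at 254 and 153 CPM at P21, above both earlier ages (log2 difference to P7 3.45, SE 1.00, edgeR adjusted p = 0.223). In adventitial fibroblasts the P21 pair (128 and 153 CPM) overlapped the P7 pair and lay below the E18.5 and P1 pairs. From fibroblast precursors (10.6 and 26.9 CPM) to P1 alveolar fibroblasts Klf2 was 6.24-fold higher (edgeR adjusted p = 0.157), with no overlap between the pairs.

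Klf6 moved in opposite directions between classes from P1 to P7. It stood at 512 and 543 CPM in alveolar fibroblasts at P1 and 205 and 205 CPM at P7, and at 847 and 820.3 and 422 and 312 CPM in adventitial fibroblasts. In myofibroblasts it stood at 114 and 166 CPM at P1 and 308 and 354 CPM at P7. The fibroblast pairs were thus lower and the myofibroblast pair higher at P7, without overlap, with log2 differences of -1.35, -1.18 and 1.26 (edgeR adjusted p = 1, 0.829 and 0.493). DESeq2 called the myofibroblast difference. Airway smooth muscle was also higher at P7 (367 and 250.3 CPM at P1, 428 and 388 CPM at P7).

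Vascular smooth muscle at P21 held the highest single level of Klf6, with 955 and 1808 CPM in the female and male, against 313 and 698 CPM at P7 and 1052 and 532 CPM at P1. The P21 pair lay above the P7 pair and straddled the P1 female (log2 difference P7 to P21 1.46, edgeR adjusted p = 0.659). In adventitial fibroblasts Klf6 was highest at E18.5 (1311 and 1008 CPM). Klf4 was lower at P7 than at P1 in both mice of 4 of the 6 classes, and higher at P21 than at P7 in 3 of 5, the adventitial class among them. How many of all genes separated in as many classes was not counted, so neither pattern can be called particular to Klf4.

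**Figure D3:**
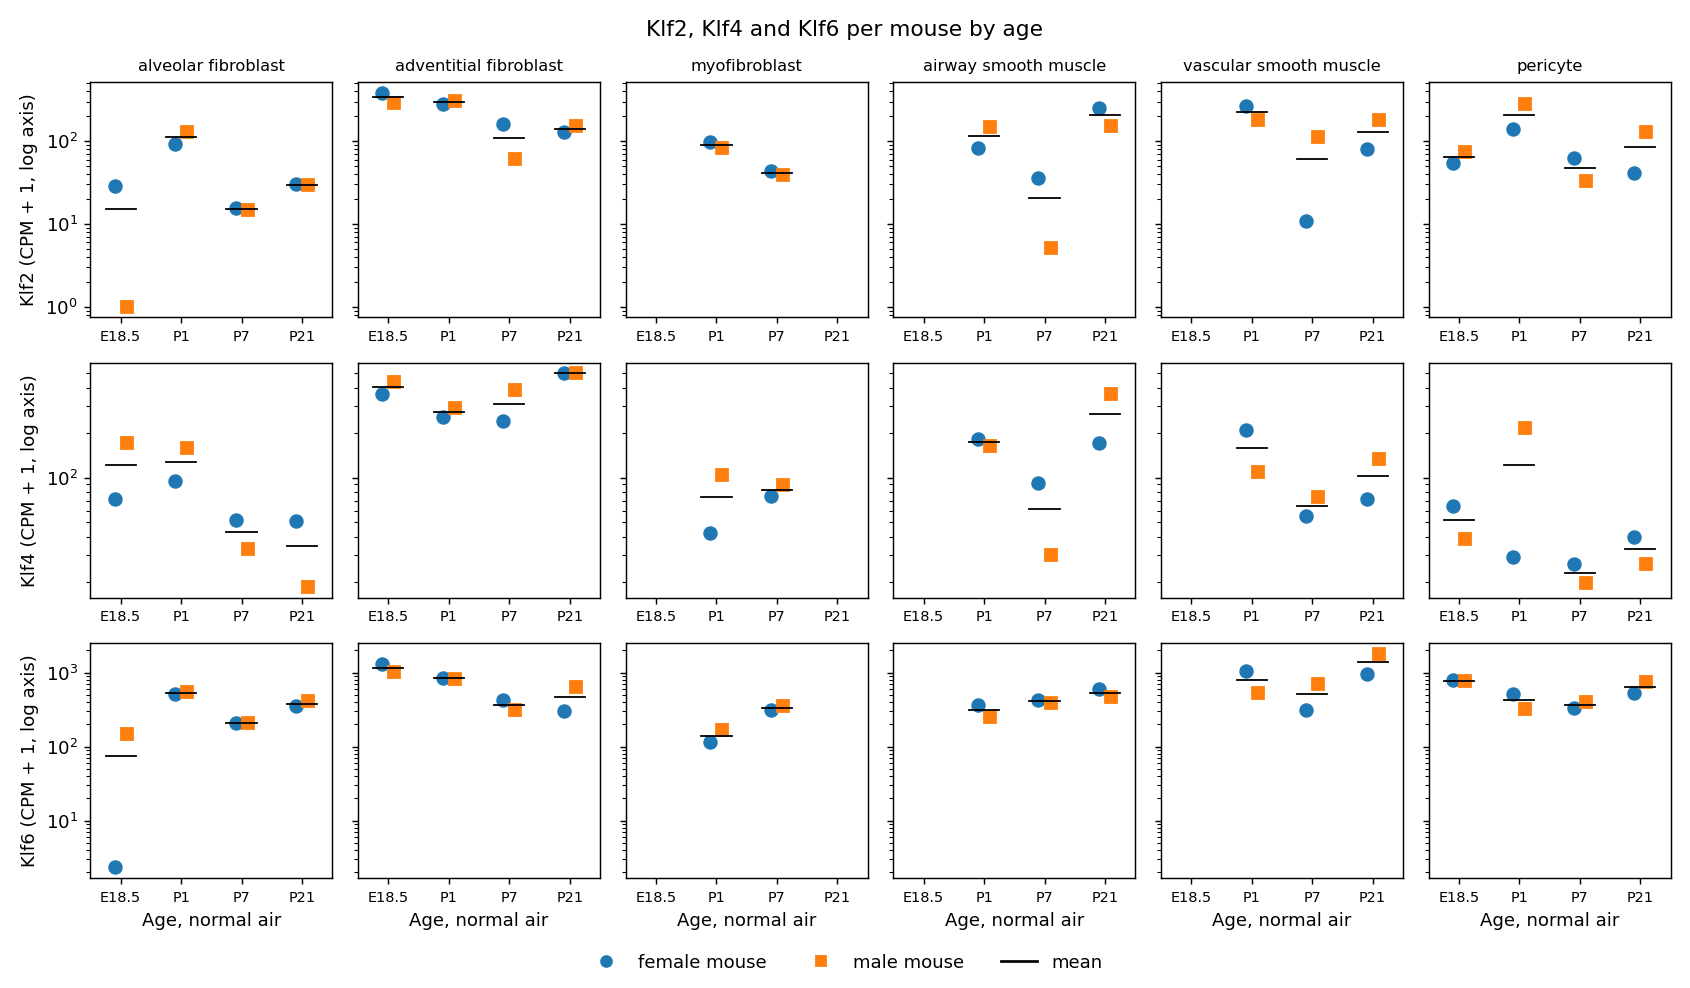
Klf2 (top), Klf4 (middle) and Klf6 (bottom) per mouse in normal air (CPM + 1, log axis) against age in 6 classes, with circles for females, squares for males and lines for the mean. Klf2 lies lower at P7 than at P1 in every class, while Klf6 lies lower in the alveolar and adventitial panels and higher in the myofibroblast and airway panels.

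Immediate early genes, which cells switch on within minutes of a stimulus, were compared as a list of 20 that holds no member. From P1 to P7 0 of them passed edgeR's test in any class (5 to 12 per class at an unadjusted p under 0.05), and their median log2 difference was negative in each class (-0.73 to -1.91), as that of Klf2 was, while Klf6 was higher at P7 in myofibroblasts and airway smooth muscle. From P7 to P21 in airway smooth muscle 10 of 20 rose and 0 fell (median 2.17 beside -0.12 for all genes), among them Btg2, an antiproliferative gene, from a mean of 1860 to 11528 CPM (log2 2.63, edgeR adjusted p = 0.0097). In vascular smooth muscle 1 of 20 rose (median 1.69). In adventitial fibroblasts 0 of 20 passed (18 at an unadjusted p under 0.05) although all 20 were positive (median 1.56).

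Across the 64 libraries, the log2 summed level of these genes had Pearson correlations of 0.73 with Klf4, 0.68 with Klf2 and 0.54 with Klf6, and of at most 0.41 with the other members. Within single libraries of at least 100 cells (17 libraries), the median Spearman correlation over cells was 0.34 for Klf4, 0.31 for Klf2, 0.22 for Klf6, 0.21 for Klf13 and 0.19 for Klf9. Cells and libraries share mice, plates and depth, so these are descriptions. Such genes are also known to respond to tissue dissociation and sorting, and the part of handling in these levels was not tested.

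Klf13 was the member that differed most evenly between air and hyperoxia. At P7 it was higher in both hyperoxia mice than in both air mice in all 5 classes compared, by 2.02 to 3.06-fold. No class passed the edgeR threshold, while DESeq2 called it in alveolar fibroblasts, adventitial fibroblasts and myofibroblasts. Klf13, on chromosome 7, encodes a close relative of Klf9 that is known from T cells and heart muscle.

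In adventitial fibroblasts Klf13 stood at 88.1 and 117 CPM in the female and male air mice and at 256 and 375 CPM in the hyperoxia mice. In alveolar fibroblasts it stood at 109.6 and 143 CPM in air and 269 and 359.8 CPM in hyperoxia. In myofibroblasts the levels were 72.6 and 100.3 CPM in air and 179 and 244 CPM in hyperoxia. The hyperoxia pairs lay clear of the air pairs in these 3 classes, at log2 differences of 1.61 (SE 0.30, edgeR adjusted p = 0.27), 1.31 (SE 0.40, adjusted p = 1) and 1.29 (SE 0.31, adjusted p = 0.528).

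In the muscle classes the pairs came closer. Klf13 was 158 and 227 CPM in air and 241 and 603 CPM in hyperoxia in airway smooth muscle, where the male hyperoxia mouse made most of the difference. It was 75.0 and 193 CPM in air and 243 and 319 CPM in hyperoxia in vascular smooth muscle. Both hyperoxia mice above both air mice in all 5 classes was found for 1.61% of the 9468 genes (152 genes), and of the members for Klf13 alone. It held with total-read scaling and with mean per-cell CPM.

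Single plates showed the same separation in 4 of the 5 classes. Alveolar plates spanned 68.1 to 168 CPM in air and 256 to 466 CPM in hyperoxia, adventitial plates 45.8 to 136 and 231 to 471 CPM, and myofibroblast plates 61.5 to 119 and 155 to 280.2 CPM. Vascular plates spanned 26.9 to 253 CPM in air and 287 to 350.2 CPM in hyperoxia, the hyperoxia plates being both of the male. Airway plates overlapped (145 to 255 CPM in air, 238 to 239 CPM in hyperoxia), the hyperoxia plates being both of the female. The share of cells with a read at equal depth was 74.0 and 75.9% in air and 93.5 and 89.7% in hyperoxia in adventitial fibroblasts, and 57.9 and 59.6% and 91.4 and 82.2% in myofibroblasts. Beside this stand the higher number of detected genes per cell and the separate sequencing runs of the hyperoxia mice, whose part in the result was not tested.

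**Figure D4:**
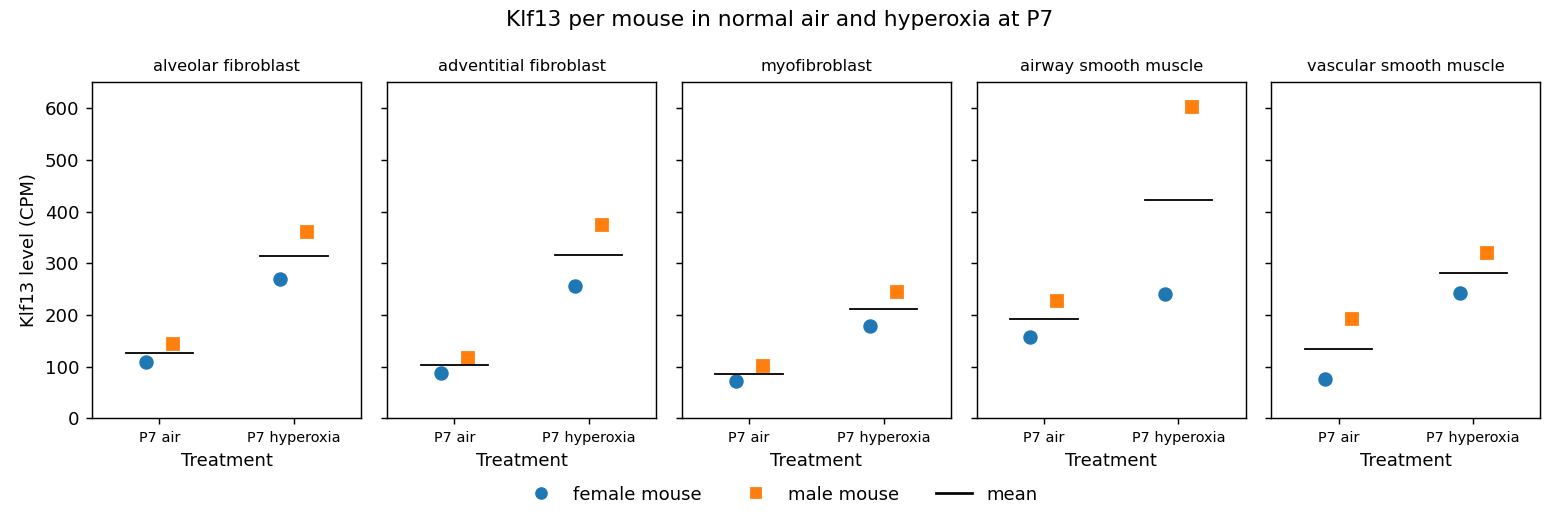
Klf13 level per mouse (CPM, axis from 0) in air and hyperoxia at P7 in 5 classes, with circles for females, squares for males and lines for the mean. Both hyperoxia mice lie above both air mice in each panel, and the airway male hyperoxia mouse is the highest at 603 CPM.

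Klf13 also differed with age in normal air. It was lower at P7 than at P1 in both mice of 4 of the 6 classes, and higher at P21 than at P7 in all 5 classes with cells (4 of 5 with total-read scaling or mean per-cell CPM). The second pattern, in all 5 classes, was shared by 1.33% of the 9468 genes. How many genes were lower in 4 of the 6 classes was not counted, so the first cannot be called particular to Klf13. The P7 to P21 log2 differences were 1.03 to 1.56 and none passed the test (edgeR adjusted p = 0.25 to 0.95). In adventitial fibroblasts the P21 pair (171 and 281 CPM) lay near the E18.5 pair (196 and 273 CPM), so P7 was the low point. The hyperoxia pair at P7 overlapped both of these.

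Klf5 was nearly absent from this mesenchyme, with a median of 0.8 CPM over the libraries, and only 8 of the 9 members reached a mean of 10 CPM because of it. Its highest level, 113 CPM, came from the subtype that the authors named male hyperoxic fibroblast, 55 cells of the male hyperoxia mouse. Of these, 30 (54.5%, exact 95% interval 40.6 to 68.0%) had a Klf5 read, and the top cell held 12.3% of the reads. A single mouse supplied the subtype, so there is no replicate and no test.

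All 55 of those cells came from plate 2 of that mouse, and in its other classes Klf5 also stood higher on plate 2 than on plate 1. In CPM of all reads, without TMM scaling, the level in adventitial fibroblasts was 5.84 on plate 1 (67 cells) and 41.2 on plate 2 (49 cells). In myofibroblasts it was 5.86 (19 cells) and 25.9 (26 cells), in vascular smooth muscle 0 (10 cells) and 73.4 (12 cells), and in alveolar fibroblasts 8.78 (137 cells) and 12.9 (105 cells). The plates differed in the same direction in each class, least in alveolar fibroblasts. The share of adventitial cells with a Klf5 read was 16.4% (exact 95% interval 8.49 to 27.5%) on plate 1 and 32.7% (19.9 to 47.5%) on plate 2, 2 intervals that overlap and cover counting error only.

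Epithelial transcripts were mostly higher on plate 2, with exceptions in single classes. The keratin gene Krt8 and the lung epithelial factor Nkx2-1 were higher on plate 2 in 4 of the 4 classes with cells on both plates, as Klf5 was. The surfactant gene Sftpc was higher in 3 of 4, and in alveolar fibroblasts it stood at 32.7 on plate 1 and 16.5 CPM of all reads on plate 2. Krt18 was higher in 2 of 4 and stood at 113 on plate 1 and 2.9 on plate 2 in vascular smooth muscle. Those plate 1 reads came from 2 of 10 cells. By share of cells with a read, Krt18 was higher on plate 2 in each class. The shares were 7.5 and 30.6% in adventitial fibroblasts, 0.7 and 9.5% in alveolar fibroblasts, 0 and 46.2% in myofibroblasts and 20.0 and 41.7% in vascular smooth muscle. These shares are without thinning. Median detected genes per cell on plates 1 and 2 were 5433 and 6325 in adventitial and 4815 and 5545 in alveolar fibroblasts. They were 5749 and 7069.5 in myofibroblasts and 4381 and 4909.5 in vascular smooth muscle. The endothelial gene Pecam1 also had a higher share on plate 2 in each class (13.9 and 34.3% in alveolar fibroblasts). The Klf4 level too was higher on plate 2 in each, so the direction was not particular to Klf5 or epithelial genes. At low levels, Epcam was higher on plate 2 in 3 of 4 and lower in 0, and Cdh1 higher in 2 and lower in 1. In the male hyperoxic fibroblasts Krt8 stood at 64.8, Nkx2-1 at 43.9, Sftpc at 9.4 and Krt18 at 7.3 CPM, while the defining adhesion genes Epcam and Cdh1 were at 1.6 and 0.1. Without thinning, 78.2% of these 55 cells had a Krt18 read, 76.4% a Krt8 read and 61.8% an Nkx2-1 read. The shares were 32.7% for Sftpc, 16.4% for Epcam and 3.6% for Cdh1. The 7 epithelial markers summed to 2.97 to 63.7 CPM over the P7 air libraries and 1.60 to 152 CPM over the hyperoxia libraries. The part of epithelial RNA in the Klf5 level was not tested.

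**Figure D5:**
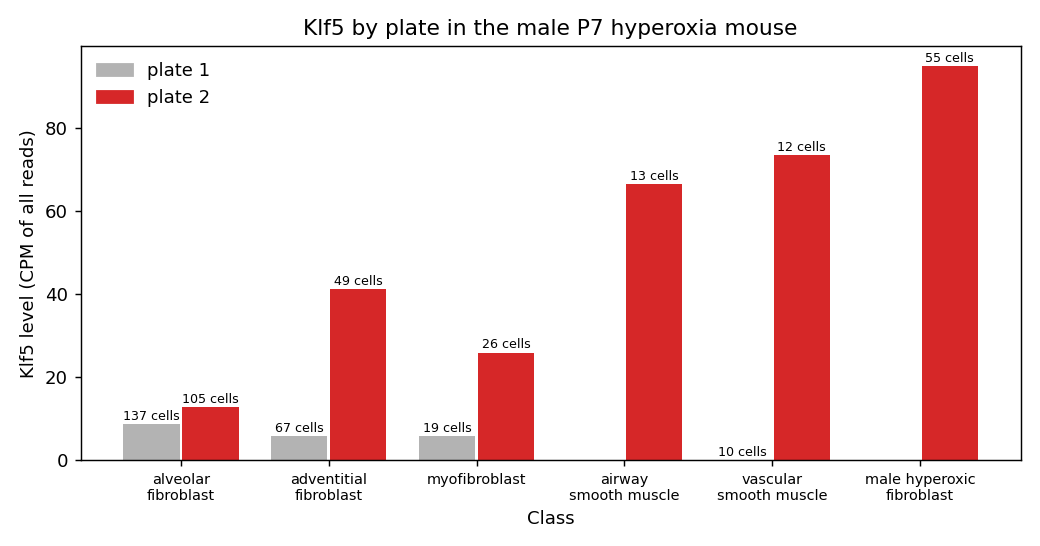
Klf5 level (CPM of all reads, axis from 0) in the classes of the male P7 hyperoxia mouse, with grey bars for plate 1, red bars for plate 2 and cell numbers above the bars. Plate 2 is higher in each class with cells on both plates, and the male hyperoxic fibroblasts, found on plate 2 alone, have the highest bar.

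Klf7 and Klf10 gave the remaining calls, both between the E18.5 and P1 alveolar fibroblasts. Klf7, a factor known from neurons and fat cells, had 0 and 5 reads in the small E18.5 alveolar libraries and 69.3 and 61.8 CPM at P1. Against a floor of 3 reads per library it was at least 76.1-fold higher at P1 (edgeR adjusted p = 0.027). Klf10, known as TGF-beta-inducible early gene, had 0 reads in both E18.5 libraries and 10.8 and 7.67 CPM at P1, at least 9.45-fold higher against the same floor (edgeR adjusted p = 0.0401). Both calls held without either E18.5 mouse and were lost without any 1 of the other 8 mice (adjusted p = 0.0562 to 0.152 for Klf7 and 0.0647 to 0.18 for Klf10) and with only the groups compared (0.567).

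Those 2 E18.5 libraries held 3123998 and 13571674 reads with 9108 and 9878 genes detected, against 16834 and 17147 genes at P1. The median of all genes in that comparison was 1.43 on the log2 scale. The part of this shift in the calls of Klf7 and Klf10 was not tested. Set against the far larger fibroblast precursor libraries of the same mice (425 and 335 cells), the differences were smaller. Klf7 was 20.0 and 34.5 CPM in the precursors, a log2 difference to P1 of 1.32 (edgeR adjusted p = 0.463), and Klf10 was 1.49 and 1.47 CPM (log2 difference 2.67, edgeR adjusted p = 0.537).

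Over all ages and treatments, Klf7 had its highest class medians in airway smooth muscle (151.8 CPM), pericytes (151.7 CPM) and adventitial fibroblasts (140.4 CPM). It stood at 67.7 and 92.2 CPM in adventitial fibroblasts at E18.5, 142 and 137 CPM at P1, 114 and 276 CPM at P7 and 173 and 233 CPM at P21. The E18.5 pair was the lowest and the P21 pair overlapped that of P7. In airway smooth muscle Klf7 was 153 and 211 CPM at P1, 83.6 and 74.7 CPM at P7 and 152 and 191 CPM at P21, with the P7 pair below the other pairs (edgeR adjusted p = 0.905 and 0.441).

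Klf3, which encodes a repressor that binds the cofactor CtBP, had its highest class median in adventitial fibroblasts (170.4 CPM over 10 libraries). It stood there at 125 and 66.6 CPM at E18.5, 173 and 187 CPM at P1, 201 and 259.7 CPM at P7 and 152 and 216 CPM at P21. The pairs from P1 on lay above the E18.5 pair (edgeR adjusted p = 0.525 from E18.5 to P1). In vascular smooth muscle Klf3 was 242 and 340.0 CPM at P1, above the adventitial P1 pair, and 65.1 and 128 CPM at P7. The vascular pairs differed without overlap in the other direction (edgeR adjusted p = 0.996). Klf10 was uneven between cells, which limits how far its levels can be followed. Its 2 plates of a library differed by a median of 1.45 on the log2 scale, against 0.39 to 0.59 for the other members. At P7 it was higher in both hyperoxia mice than in both air mice in 2 of 5 classes. That count was 4 of 5 with total-read scaling or mean per-cell CPM. How many of all genes separated in as many classes was not counted. In myofibroblasts the mean Klf10 level was 22.5 CPM in air and 90.0 CPM in hyperoxia (edgeR adjusted p = 0.734).

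Of 17 further genes of the Kruppel-like and SP families, 9 to 13 could be tested per class, and Klf15 alone was called. Klf15, a metabolic regulator also known as glucocorticoid-inducible, fell in adventitial fibroblasts from a mean of 151 CPM at E18.5 to 6.42 CPM at P1 (log2 difference -4.55, SE 0.70, edgeR adjusted p = 0.0398), and stood at 34.3 CPM at P21. The joint test over ages gave an adjusted p of 0.0212.

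Few genes that are known to act with the members passed the test. Of 10 cofactor genes (the corepressors Ctbp1, Ctbp2, Sin3a and Sin3b, the deacetylases Hdac1 to Hdac3, and the acetyltransferases Ep300, Crebbp and Kat2b), 1 rose, in alveolar fibroblasts from E18.5 to P1, and 0 passed in any other step (edgeR, 0 to 2 of 10 per class at an unadjusted p under 0.05). Of 5 genes of the ERK5 and MEF2 pathway, Mef2a, a partner in Klf2 induction, rose in airway smooth muscle from P7 to P21 (log2 difference 2.48, edgeR adjusted p = 0.0208). Of 10 contractile genes, the ones Klf4 is known to oppose, 2 fell in airway smooth muscle, 2 in pericytes and 1 in adventitial fibroblasts from P7 to P21. Over the 64 libraries the summed contractile level had a Pearson correlation of -0.06 with Klf4. Of 6 TGF-beta response genes, 1 fell in airway smooth muscle (Tgfbi, log2 difference -3.24). Their summed level had a correlation of 0.43 with Klf10, the highest of the 9 members, next to 0.38 with Klf3 and 0.37 with Klf7. Most of that sum was Tgfbi, also a marker of myofibroblasts, with a mean of 1827 CPM over the libraries against 123 CPM for Skil, the next.

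Among the members themselves, Klf3 and Klf7 varied together most closely over the 64 libraries (Pearson r = 0.70 on log2(CPM + 1)), followed by Klf3 and Klf10 (0.63), Klf6 and Klf7 (0.62) and Klf2 and Klf4 (0.61). Among all 9468 genes with a mean of at least 10 CPM, the closest to Klf4 were Fos (0.77), Col1a1 (0.74) and Col5a1 (0.73). The closest to Klf2 were Cxcl1 (0.69), Irf1 (0.67) and Junb (0.67), and to Klf6 Rras (0.75), Dync1h1 (0.73) and Slc50a1 (0.73). Klf9 was closest to Psap (0.69), Gaa (0.66) and Gstm1 (0.65), and Klf13 to Cavin1 (0.76), Sdc4 (0.74) and Slc39a1 (0.66). Klf7 had the closest match of any member, Tm2d3 (0.84), then Tpst1 (0.75) and Man2b1 (0.74). For Klf3 they were Cers4 (0.77), Sntb2 (0.75) and Kdelr3 (0.74), for Klf10 Slc48a1, Tgfb3 and Synpo (0.72 each), and for the sparse Klf5 Cpz (0.66), Tubb3 (0.65) and Rap2b (0.63).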

How the data were processed

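Single cells sorted from distal mouse lung were measured in 10 mice. The deposited values were whole-number read counts per gene and cell, which the authors made with STAR 2.5.2b and HTSeq 0.10, per the submitters' processing notes. Those notes name the build GRCh38, a human build, so the build behind the counts is uncertain. Filters, strand handling and removal of doublets are not given in the sources used here, and no doublet caller was run. Mice held 294154721 to 671766116 reads. The 69 cells of a CD31 and 2 of a CD45 sort were kept.

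Counts were summed per mouse and class (at least 10 cells, 64 libraries), scaled by TMM once over all libraries, and tested in edgeR 4.0.16 (R 4.3.3) with two-sided quasi-likelihood tests per class, terms for group and sex, and Benjamini-Hochberg adjustment over all genes. edgeR's filter on low counts was applied per class. CPM, shares and plots used numpy 2.4.6, pandas 2.3.3, scipy 1.17.1 and matplotlib 3.10.9. Alternatives used DESeq2 1.42.0 and limma 3.58.1, other scalings and filters, at least 20 cells, and leaving out each mouse. Shares of cells were computed after thinning to 100000 reads, leaving out 168 cells. Exon lengths came from GENCODE M21 and promoters from RefSeq. Correlations used log2(CPM + 1). The 9 genes, the gene lists and the tests were chosen with earlier results of these data known. Counts of genes whose mice do not overlap in every class, and their check under other scalings, were added after the values had been seen. All 9 members were named, with the 3 genes most correlated to each, other family genes past the threshold, and up to 3 genes of a list by level. In simulated data with 4-fold changes in 200 genes from P7 to P21, 0% of them were called in alveolar fibroblasts, 6% in adventitial fibroblasts and 0% in vascular smooth muscle. The simulated adventitial data gave 15 calls, of which 12 were changed genes and 3 were false. Each group has 1 mouse per sex, so p-values measure the spread between these mice.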

Additional observations from a re-analysis of the deposited data

Results flagged for a closer look

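From P1 to P7 several members moved in opposite directions in 2 classes of the same mice, both mice of each age without overlap. The pairs were picked after these values had been seen. How many of all genes moved in opposite directions in some pair of classes was not counted, so the pattern cannot be called particular to the members. Each difference between 2 classes was tested with edgeR as an interaction term in a fit blocked by mouse, and no member passed after adjustment over all genes. In these fits 0 to 8 of the 13942 to 15918 genes passed, and 547 to 1483 had an unadjusted p under 0.05.

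Klf6 gave the largest differences. The myofibroblast step exceeded the alveolar step by 2.63 on the log2 scale (SE 0.31, p = 6.86e-05, adjusted p = 0.109) and the adventitial step by 2.46 (SE 0.35, p = 0.000162, adjusted p = 0.151). The airway step exceeded the alveolar one by 1.79 (adjusted p = 0.857) and the adventitial one by 1.63 (adjusted p = 0.963).

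For Klf7 the myofibroblast step exceeded the airway step by 2.34 (adjusted p = 0.773) and the alveolar step by 1.65 (adjusted p = 0.43). For Klf3 the vascular step lay below the adventitial step by 1.99 (adjusted p = 1) and below the myofibroblast step by 1.95 (adjusted p = 0.777). For Klf9 the airway step exceeded the alveolar one by 1.64 (adjusted p = 1) and the adventitial one by 1.40 (adjusted p = 0.985).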

How the results depend on the processing

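The counts of member tests past the threshold depended on the fit more than the levels did. From P7 to P21 the count of 1 became 2 with RLE size factors, 2 without the filter on low counts, 2 without the term for sex, 2 with at least 20 cells, 8 with DESeq2 and 0 without scaling factors. For the joint test over ages the count of 2 became 1 without scaling factors, 1 with TMM within each class, 1 with only the groups compared, 4 without the term for sex, 4 with limma on mean per-cell CPM, 8 with at least 20 cells and 13 with DESeq2. From E18.5 to P1 the count of 3 became 10 with DESeq2, 6 with at least 20 cells and 5 with limma. The counts of 0 became 2 from P1 to P7 and 3 under hyperoxia with DESeq2. The cause was not tested. Leaving out each mouse in turn gave 0 to 5 from E18.5 to P1, 0 to 2 from P1 to P7, 0 to 3 from P7 to P21, 0 to 7 for the joint test and 0 to 0 under hyperoxia. The E18.5 to P1 count was 0 without the female P7, female hyperoxia, male P1, male P7 or male hyperoxia mouse and 5 without the female E18.5 mouse. The P1 to P7 count was 2 without the female P1 mouse. The P7 to P21 count was 0 without the male P7 or male P21 mouse, 2 without the male and 3 without the female E18.5 mouse. The joint count was 0 without the female or male P21 mouse, 6 without the male and 7 without the female E18.5 mouse, and 1 without the female P1, female hyperoxia, male P1, male P7 or male hyperoxia mouse.

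Over the 20 alternatives the Klf9 call in airway smooth muscle held in 15 from P7 to P21 (adjusted p = 0.0608 without scaling factors and 0.0515 with only the groups compared) and in 18 jointly, the joint adventitial Klf9 call in 8, the precursor call of Klf9 in 12, and the alveolar calls of Klf7 and Klf10 in 11 each. Of 270 subtype levels, 65 moved by more than the spread between mice with mean per-cell CPM, 30 with total reads and 9 without the CD31 and CD45 sorts. Of 270 subtype shares, 78 moved with thinning to 50000 reads and 115 without thinning. No paired analysis was possible because each group holds 1 female and 1 male mouse and the labels pair no mice between groups beyond their sex, which the fits already hold as a term. Depth limits the E18.5 alveolar libraries, where 3 reads correspond to 0.812 and 0.25 CPM.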
